A study of Mus musculus with 2 samples.

Results

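LβT2 cells are an immortalised line from the mouse anterior pituitary with features of the gonadotrope, the cell that releases the gonadotropins. Its cells with much or little Cntnap5a transcript are described here. The cells were chosen inside each library by their Cntnap5a UMIs (unique molecular identifiers, which count each captured transcript once) divided by the UMIs of all other analysed genes. The top quartile was called Cntnap5a-high and the bottom quartile Cntnap5a-low. Of 3881 called cells, 1782 fell in these classes. They were 444 high and 444 low cells of the vehicle library, and 448 high and 446 low cells of the GnRH library.

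Both cultures were LβT2 cells at passage 15, given 2 nM GnRH (gonadotropin-releasing hormone, the hypothalamic peptide that drives gonadotropes) or vehicle for 40 min. Each treatment had 1 library of droplet-based 3′ single-cell RNA-seq. Since single cells cannot stand in for cultures, no p-value is given. Intervals are 95% intervals of counting error only, and they are too narrow where a gene varies between cells by more than counting. The table held 1068 genes, of which all 1062 that could be placed lay on chromosome 1, so levels are counts scaled to 1000000 UMIs of the analysed genes other than Cntnap5a (CPM) and not of the whole transcriptome. Cells with fewer than 300 UMIs of the analysed genes, Cntnap5a included, were left out, 219 among vehicle and 108 among GnRH cells, which left 1773 and 1781. None of the 7 gonadotrope markers was among the analysed genes. Of 21 markers of gonadotropes and other cell types, 5 were analysed (Col3a1 and Col5a2 of fibroblasts; Ctla4, Il1rl1 and Marco of immune cells), and all 5 were at 0 UMIs in both classes of both libraries.

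Cntnap5a encodes a contactin-associated protein-like membrane protein of the neurexin superfamily. Proteins of this family carry discoidin, laminin G and EGF-like repeats outside the cell and a single membrane span, and they are known from contacts between neurons and between neurons and glia. The gene (ENSMUSG00000070695) covers 902.6 kb of the plus strand, at chr1:115684756-116587323 in GRCm38, with exons that together span 10945 bases. A miRNA gene, Gm23393, lies inside it on the opposite strand. Its neighbour in the family, Cntnap5b, had 0 UMIs in both classes of both libraries.

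Cntnap5a was the eighth most abundant analysed gene in the vehicle library and number 9 in the GnRH library, with 1.90% and 1.72% of the UMIs. The values that chose the cells were as follows. High cells of the vehicle library held a median of 21 Cntnap5a UMIs (lowest 8, highest 67), and low cells a median of 3 (lowest 0, highest 15). In the GnRH library the medians were 19 (7 to 56) and 2 (0 to 11). No UMI was found in 49 low cells of the vehicle and 69 low cells of the GnRH library. Summed over cells, the high class stood at 35138 CPM in the vehicle library (34451 to 35834) and the low class at 5231 CPM (4952 to 5522). The GnRH library had 31652 CPM (31009 to 32305) and 4495 CPM (4232 to 4770). Cells lay close together on both sides of the quartile limits. In the vehicle library the last low cell had 97.8 Cntnap5a UMIs per 10000 UMIs of other genes and the next cell 98.0, and the last cell below the high class had 260.4 and the first high cell 260.9. The corresponding values of the GnRH library were 85.9, 86.02, 230.3 and 230.4.

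**Figure D1:**
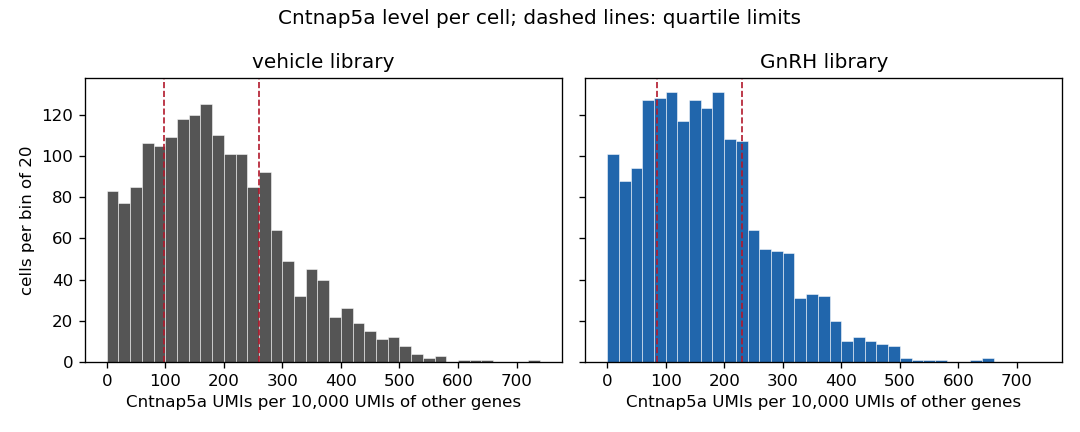
Histogram of cells (y axis, cells per bin of 20) by Cntnap5a UMIs per 10000 UMIs of other genes (x axis) in each library, with dashed lines at the quartile limits. Both libraries show a broad hump with a tail to the right and no gap at either limit, and the lowest bin, with 83 and 101 cells, stands slightly above the next, with 77 and 88.

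Because the same counts chose the cells and gave these levels, the contrast between classes is set by the rule. A value that the choice did not use was obtained by sending each UMI at random to 1 of 2 sets, forming the classes from the first set and measuring in the second. Cntnap5a then stood at 30178 CPM in high and 8652 CPM in low cells of the vehicle library, a 3.49-fold difference (log2 ratio 1.80, 1.71 to 1.90). It stood at 27165 and 7392 CPM in the GnRH library, a 3.67-fold difference (log2 ratio 1.88, 1.77 to 1.98). A difference between the classes thus remained in UMIs that had not chosen them, and it was smaller than the 6.72-fold and 7.04-fold of the chosen counts themselves. Across all cells of a library, the variance of Cntnap5a was 6.95 times its mean in the vehicle and 6.69 times in the GnRH library, against 2.26 and 2.17 for a constant Cntnap5a share with counting noise and the same depths. Cells without a Cntnap5a UMI were 2.76% and 3.87% of all, against 0.0197% and 0.0359% for such a constant share. Over all cells with at least 300 UMIs, Cntnap5a was 1.10-fold lower in the GnRH than in the vehicle library (log2 ratio -0.14, -0.17 to -0.11). Levels are shares of the analysed genes, and the typical gene was lower too. Among 330 genes with enough UMIs in each class, the median GnRH over vehicle log2 ratio was -0.09 in high and -0.06 in low cells. Whether Cntnap5a changed beyond this shift was not tested.

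High cells were also deeper. The mean was 639 UMIs of other genes in high and 565 in low cells of the vehicle library, and 650 and 544 in the GnRH library. The median number of detected genes was 174 against 155, and 167.5 against 152. This depth difference moves with the classes, so ratios of named genes with at least 100 UMIs in a library were also formed with quartiles taken inside 5 bins of cells of like UMI total, where the ratio of mean UMIs of high to low cells was 0.982 and 0.993.

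The next question was which other genes differed between the classes. Fn1, Tns1, St18, Ecel1, Dpp10, Bcl2 and Pign were at least 1.5-fold higher in high cells of both libraries, and Tmem37 and Nppc were at least 1.5-fold lower in both. These 7 and 2 genes are 2.1% and 0.601% of the 333 genes with at least 100 UMIs over the classes of each library. In the vehicle library 25 of 344 genes (7.27%) were at least 1.5-fold higher and 6 (1.74%) lower. Among GnRH cells 13 of 336 (3.87%) were higher and 6 (1.79%) lower. The 7 shared genes are 28% of the vehicle and 53.8% of the GnRH genes that were higher, and the 2 shared genes 33.3% of the genes that were lower in each. The balance between directions depended on scaling in the vehicle library, where the median log2 ratio of all genes was 0.11. TMM scaling gave 12 higher and 12 lower genes there, and median-of-ratios scaling 10 and 15. Over both libraries each of these scalings gave 4 higher (Ecel1, Fn1, St18 and Tns1) and 3 lower genes (Nppc, Tmem37 and Tuba4a), so that Bcl2, Dpp10 and Pign were under 1.5-fold in at least 1 library. Inside bins of like UMI total 4 of the 7 higher genes (Bcl2, Fn1, St18 and Tns1) and both lower genes were past 1.5-fold in both libraries. Ecel1 had log2 ratios of 0.58 and 0.55 there, Dpp10 0.57 and 0.66, and Pign 0.67 and 0.55, each under the threshold in at least 1 library. With each cell thinned to 300 UMIs of other genes (Cntnap5a by the same share) and the classes formed anew, Dpp10, Fn1, St18 and Tmem37 were past 1.5-fold in both libraries, and Bcl2, Ecel1, Nppc, Pign and Tns1 were not. Ties at the limits made the thinned classes wider than quartiles, with 507 high and 577 low vehicle cells and 550 and 489 GnRH cells. Tns1 then had log2 ratios of 0.57 and 0.55, and Nppc -0.54 and -0.68. The 2 libraries hold separate cells, and over the 333 genes their log2 ratios had a Pearson correlation of 0.77 (Spearman 0.78) and the same sign for 279. This is a description across genes, which share the depth difference between classes and are not independent replicates.

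**Figure D2:**
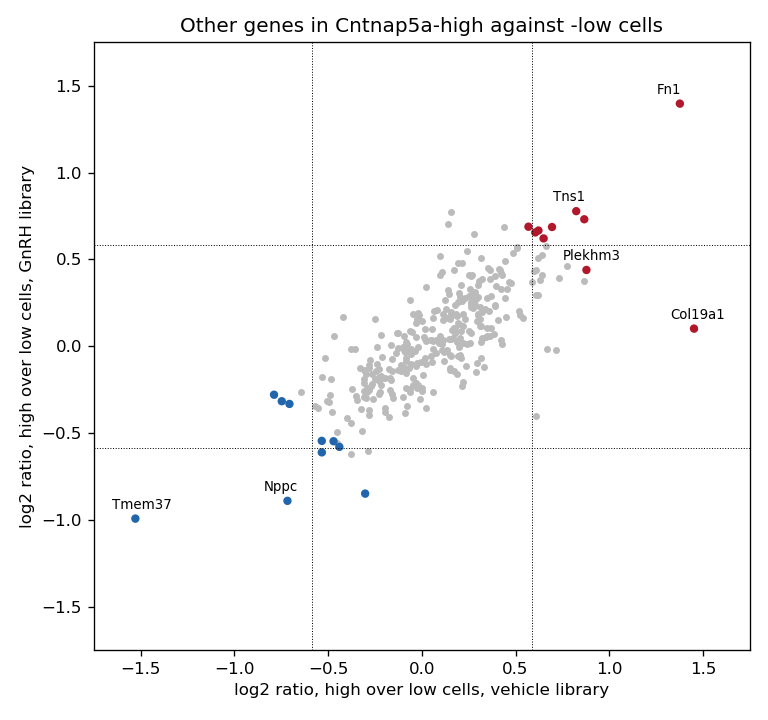
Log2 ratio of high over low cells in the vehicle library (x axis) and in the GnRH library (y axis) for the 333 genes with at least 100 UMIs in each, with dotted lines at 1.5-fold, red points for the 10 highest mean ratios and blue points for the 10 lowest. Fn1 stands apart at the upper right (1.38 and 1.40) and Tmem37 at the lower left (-1.53 and -0.99), while Col19a1 is high on the x axis and near 0 on the y axis (1.45 and 0.10).

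Fn1 encodes fibronectin, the extracellular matrix glycoprotein that binds integrins (ENSMUSG00000026193, minus strand, chr1:71585520-71653200). It had 264 UMIs in high and 90 in low cells of the vehicle library, or 931 and 359 CPM, a log2 ratio of 1.38 (1.03 to 1.74). The GnRH library gave 272 and 86 UMIs, or 934 and 355 CPM, a log2 ratio of 1.40 (1.04 to 1.76). The levels in the libraries lay close together within each class, and the classes stood 2.60-fold and 2.63-fold apart. Inside bins of like UMI total the log2 ratios were 1.29 and 0.94, and after thinning 1.15 and 0.94. At least 1 Fn1 UMI was found in 34.2% of high (29.8 to 38.9%) and 14.4% of low cells (11.3 to 18.0%) in the vehicle library, and in 36.6% (32.1 to 41.3%) and 13.9% (10.8 to 17.5%) in the GnRH library. With each cell thinned to 300 UMIs and the classes formed anew, the shares were 18.9% and 9.19% in the vehicle and 20.5% and 9.82% in the GnRH library. No cell type that should lack these genes was available for comparison, so a background share from free RNA could not be given. Apol7d, annotated as antisense, overlaps Fn1 on the opposite strand and had at most 5 UMIs in any class.

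Tns1 encodes tensin 1, which links integrin adhesions to actin filaments (chr1:73910231-74124449, minus strand, no overlapping gene). It had 964 and 482 UMIs in the vehicle library (3398 and 1920 CPM, log2 ratio 0.82, 0.66 to 0.98) and 881 and 428 in the GnRH library (3026 and 1765 CPM, 0.78, 0.61 to 0.95). Col19a1, a collagen of the group that sits on fibril surfaces, was past 1.5-fold in the vehicle library with 102 and 33 UMIs (log2 ratio 1.45, 0.87 to 2.06) but not with 76 and 59 in the GnRH library (0.10, -0.41 to 0.62), and the difference between the libraries has no replicate check. Actin assembly genes listed with Fn1 and Tns1 had ratios below 0. Arpc2, a subunit of the Arp2/3 complex that branches actin, had log2 ratios of -0.38 and -0.44, and Actr3, another subunit, -0.18 and -0.13. Of 15 listed matrix and actin genes, 12 were analysed and 5 had enough UMIs, of which 2 (Fn1 and Tns1) were at least 1.5-fold higher and 0 lower in each library, beside 7.27% and 3.87% higher of all genes. The median log2 ratio of these 5 was 0.26 among vehicle and 0.02 among GnRH cells, beside 0.11 and 0.04 over all genes. Over the alternatives the vehicle median ranged from 0.01 to 0.29 and the GnRH median from -0.08 to 0.04, and the summed UMIs of the listed genes had log2 ratios of -0.06 and -0.09.

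Dpp10 encodes an accessory subunit of the Kv4 potassium channels, and it overlaps 10 other annotated genes, so that its reads may be shared. It had 1322 UMIs in high and 760 in low cells of the vehicle library (4660 and 3028 CPM, log2 ratio 0.62, 0.49 to 0.75). Among GnRH cells it had 1269 and 666 (4359 and 2746 CPM, 0.67, 0.53 to 0.80). Ecel1, a membrane metallopeptidase related to the endothelin-converting enzymes, had 854 and 467 UMIs (log2 ratio 0.69, 0.53 to 0.86) and 883 and 457 UMIs (0.69, 0.52 to 0.85). St18, a zinc finger transcription factor of the Myt family, had 239 and 116 UMIs (0.87) and 275 and 138 UMIs (0.73). Nfasc, a neuronal adhesion molecule of the L1 family, stayed under the size rule with log2 ratios of 0.51 and 0.56, and so did Map2, a dendritic microtubule protein, with 0.37 and 0.29. Tuba4a, an alpha tubulin, went the other way with -0.53 and -0.61, and Kif1a, a motor of axonal transport, had -0.03 and 0.15. Of 34 listed neuronal adhesion and channel genes 33 were analysed and 11 had enough UMIs. In the vehicle library 1 of these (Dpp10) was at least 1.5-fold higher and 0 lower, beside 7.27% higher of all genes. Among GnRH cells 1 was higher (Dpp10) and 1 lower (Tuba4a), beside 3.87% and 1.79% of all genes. After thinning, Tuba4a was under 1.5-fold among GnRH cells, at -0.49. The median log2 ratio was 0.15 and 0.27, beside 0.11 and 0.04 over all genes, and ranged over the alternatives from 0.05 to 0.51 and from 0.18 to 0.27.

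The remaining genes with high ratios serve varied functions. Bcl2, the inhibitor of apoptosis, had 397 and 224 UMIs in the vehicle library (log2 ratio 0.65, 0.41 to 0.89) and 384 and 208 in the GnRH library (0.62, 0.37 to 0.87). Pign, an enzyme of GPI anchor synthesis, had log2 ratios of 0.60 and 0.66, and Srgap2, a GTPase-activating protein that shapes the cell membrane, 0.57 and 0.69. Plekhm3, a pleckstrin homology domain protein, had 0.88 and 0.44. Bcl2, Pign, Srgap2 and Plekhm3 each overlap other annotated genes.

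Tmem37 and Nppc were lower in high cells. Tmem37 encodes a membrane protein related to the gamma subunits of calcium channels (ENSMUSG00000050777, minus strand, chr1:120067377-120074074, no overlapping gene). It had 89 UMIs in high and 227 in low cells of the vehicle library (314 and 904 CPM, log2 ratio -1.53, -1.90 to -1.17) and 108 and 179 in the GnRH library (371 and 738 CPM, -0.99, -1.35 to -0.64). A Tmem37 UMI was found in 18.0% of high (14.6 to 21.9%) and 33.6% of low cells (29.2 to 38.2%) in the vehicle library, and in 19.9% (16.3 to 23.9%) and 27.6% (23.5 to 32.0%) in the GnRH library. After thinning to 300 UMIs the shares were 12.03% and 20.3%, and 10.2% and 18.4%. Before thinning, the Tmem37 CPM of low cells was 2.88 times that of high cells in the vehicle and 1.99 times in the GnRH library. Nppc encodes the precursor of C-type natriuretic peptide, a secreted peptide that acts through a guanylyl cyclase receptor (ENSMUSG00000026241, minus strand, chr1:86666291-86670571, no overlapping gene). It had 617 and 897 UMIs in the vehicle library (2175 and 3573 CPM, log2 ratio -0.72, -0.87 to -0.57) and 555 and 857 in the GnRH library (1907 and 3534 CPM, -0.89, -1.05 to -0.73). Inside bins of like UMI total the log2 ratios were -1.46 and -1.08 for Tmem37 and -0.68 and -0.80 for Nppc, and after thinning they were -0.93 and -1.002 for Tmem37.

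Windows at the RefSeq starts of Tns1, Tmem37 and Nppc are shown because these genes, without an overlapping gene, were among those that stood furthest apart in each direction. The sequences are windows in GRCm38.p6 from 250 bases before to 50 bases after the RefSeq start, on the minus strand. They lie at chr1:74124499-74124798 for Tns1, chr1:120073731-120074030 for Tmem37 and chr1:86670524-86670823 for Nppc. By the gene coordinates given above (GENCODE), the Tns1 window lies wholly before the gene and the Tmem37 window wholly inside it. Only the Nppc window holds the GENCODE start of its gene. Capitals mark matches on either strand to the GC box core GGGCGG and the TATA box TATAAA.
Tns1: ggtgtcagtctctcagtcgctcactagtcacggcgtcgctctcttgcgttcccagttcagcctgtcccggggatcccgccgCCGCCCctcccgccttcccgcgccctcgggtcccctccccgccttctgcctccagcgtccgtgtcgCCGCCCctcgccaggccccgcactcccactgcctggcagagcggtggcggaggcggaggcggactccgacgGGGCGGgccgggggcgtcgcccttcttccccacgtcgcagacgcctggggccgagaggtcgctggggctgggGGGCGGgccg
Tmem37: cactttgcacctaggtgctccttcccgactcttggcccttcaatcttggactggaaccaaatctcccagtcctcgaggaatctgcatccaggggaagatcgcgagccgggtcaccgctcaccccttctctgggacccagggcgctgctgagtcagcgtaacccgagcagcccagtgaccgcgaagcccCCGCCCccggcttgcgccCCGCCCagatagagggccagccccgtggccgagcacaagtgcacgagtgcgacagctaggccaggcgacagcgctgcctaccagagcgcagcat
Nppc: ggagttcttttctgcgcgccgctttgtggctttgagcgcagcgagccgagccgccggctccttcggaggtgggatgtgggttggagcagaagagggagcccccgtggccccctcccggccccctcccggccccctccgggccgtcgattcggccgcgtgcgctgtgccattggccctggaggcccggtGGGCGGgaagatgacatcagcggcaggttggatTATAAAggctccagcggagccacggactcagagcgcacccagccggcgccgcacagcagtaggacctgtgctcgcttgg
Tns1 held 4 GC box cores, Tmem37 2 and Nppc 1. Only the Nppc window of these 3 held the TATA box letters, beginning 29 bases before the RefSeq start. Of 32851 windows in the table, 35.7% held the GC box core and 13.6% the TATA box letters. The cyclic AMP response element TGACGTCA, searched in the same way, was in none of the 3 and in 1.79% of all windows. A match is a description of the letters and not of binding. Of the 20 genes with the highest and lowest mean ratios, 17 had a window in the table.

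The cells between the classes were used to see whether levels changed stepwise with Cntnap5a. The cells of a library were put in 4 quartiles by Cntnap5a, of which the first and the last are the low and high classes apart from ties at a limit. The choice of the genes with the highest and lowest ratios fixes the order of the outer quartiles, so only the middle ones, compared after the values were seen, add to it. From the second to the third quartile 9 of the 10 genes with the highest mean ratios went up among vehicle and 8 among GnRH cells, beside 185 and 166 of all 333 genes. Of the 10 genes with the lowest, 8 and 8 went down, beside 148 and 167 of all 333. Tns1 went from 1920 through 2566 and 2953 to 3395 CPM in the vehicle library and from 1765 through 2363 and 2591 to 3012 CPM in the GnRH library. Tmem37 went from 904 through 606 and 495 to 314 CPM, and from 738 through 580 and 407 to 370 CPM. Fn1 went up at each step in the vehicle library (359, 419, 533 and 932 CPM) but not in the GnRH library (355, 657, 607 and 937 CPM).

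**Figure D3:**
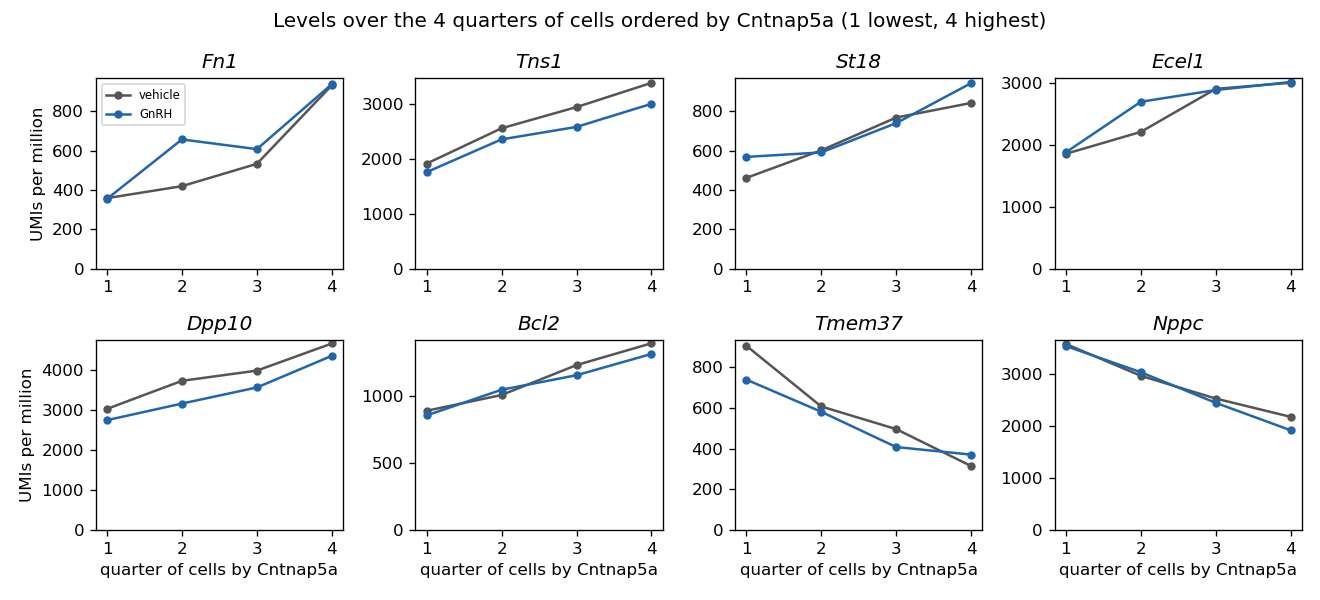
CPM (y axis, from 0) of 8 genes over the 4 quartiles of cells ordered by Cntnap5a (x axis) in the vehicle (grey) and GnRH (blue) library, 1 point per quartile. Levels of Fn1, Tns1, St18, Ecel1, Dpp10 and Bcl2 are highest in the last quartile of both libraries, and those of Tmem37 and Nppc are lowest there.

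Several abundant secretory transcripts differed by less than 1.5-fold. Igfbp2, a binding protein of insulin-like growth factors, had 8236 UMIs in high and 10163 in low cells of the vehicle library (log2 ratio -0.48, -0.52 to -0.44) and 8919 and 9652 in the GnRH library (-0.38, -0.42 to -0.34). Its chromosomal neighbour and relative Igfbp5 had -0.28 and -0.37. Dbi, the acyl-CoA-binding protein, had -0.45 and -0.56, and Serpine2, a secreted serine protease inhibitor, -0.40 and -0.41. The granule protein gene Scg2 went the other way, with 20202 and 15631 UMIs (0.19, 0.16 to 0.22) and 20429 and 14239 (0.26, 0.23 to 0.29). Inha, the inhibin alpha subunit, had 0.41 and 0.44 (0.32 and 0.20 inside bins of like UMI total), while Inhbb, the beta B subunit, had 0.05 and 0.04. Akr1cl, an aldo-keto reductase gene, had 0.62 and 0.29 (0.94 and 0.20 inside the bins). It was thus past 1.5-fold in the vehicle library only, and after thinning it was under 1.5-fold there, at 0.50. Inside the bins the GnRH ratios of Igfbp2, Igfbp5, Serpine2 and Scg2 were nearer to 0, at -0.32, -0.23, -0.31 and 0.18. Of the 13 listed secretory and hormone genes 11 had enough UMIs, of which 2 (Ecel1 and Akr1cl) were at least 1.5-fold higher in the vehicle library, 1 (Ecel1) in the GnRH library and 0 lower in either, beside 7.27% and 3.87% higher of all genes. Their median log2 ratio was 0.05 and -0.16, with ranges over the alternatives of -0.11 to 0.13 and -0.26 to -0.03. Inside bins of like UMI total the GnRH median was -0.03. The log2 ratio of their summed UMIs was -0.09 and -0.06.

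Mitochondrial genes lay mostly below 0. Of 19 listed, 16 were analysed and 15 had enough UMIs, and 14 of these had a log2 ratio below 0 among vehicle and 13 among GnRH cells, whereas 209 of 344 and 187 of 336 of all genes were above 0. None was 1.5-fold apart, which with 15 genes is near the share of all genes (7.27% higher and 1.74% lower, and 3.87% and 1.79%). The median was -0.21 and -0.12, beside 0.11 and 0.04 over all genes, and it stayed below 0 under each alternative run, from -0.31 to -0.08 in the vehicle and from -0.16 to -0.06 in the GnRH library. Mrpl15, a protein of the mitochondrial ribosome, was lowest with -0.47 and -0.55. Cox5b, a subunit of cytochrome c oxidase, had 7689 and 8410 UMIs (-0.31, -0.35 to -0.26) and 7502 and 7470 UMIs (-0.26, -0.30 to -0.21). Chaperone and stress genes, of which Hspd1 and Hspe1 are also on the mitochondrial list, had 7 of 9 and 8 of 9 members below 0, with medians of -0.09 and -0.09, beside 0.11 and 0.04 over all genes. The 0 of 9 genes past 1.5-fold is likewise near the share of all genes. Hspd1, the mitochondrial chaperonin, had -0.21 and -0.06.

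Ribosome and translation genes had members on both sides of 0. All 11 analysed of 12 listed had enough UMIs and 0 were 1.5-fold apart, again near the share of all genes. The most abundant, Rpl37a of the large subunit, was higher in high cells in both libraries (0.27 and 0.27), Rpl31 was at 0.02 and 0.04, and Rpl7 at -0.13 and -0.13. The nucleolar genes Ncl and Rrs1 were at -0.23 and -0.20, and at -0.30 and -0.30. The median was -0.13 in each library, beside 0.11 and 0.04 over all genes, while the summed UMIs, in which abundant genes weigh more, had log2 ratios of 0.02 and 0.04. Replication and mitosis genes, 17 of 21 listed with enough UMIs, were also under 1.5-fold, where 7.27% and 3.87% of all genes were that much higher. Their medians were 0.19 and 0.15, beside 0.11 and 0.04 over all genes. The vehicle median was 0.0085 after thinning to 300 UMIs, and the GnRH median 0.0079 inside bins of like UMI total. The helicase subunits Mcm6 (0.28 and 0.27) and Mcm3 (0.19 and 0.18) and the centromere chaperone gene Hjurp (0.30 and 0.15) stood above 0, and Dtymk, which makes dTDP, was at -0.16 and 0.00 (-0.13 in the GnRH library inside the bins). Xrcc5, a subunit of the Ku complex of DNA repair, was the lowest of the list in each library with -0.18 and -0.41.

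Long genes tended to have the higher ratios, and the gene lists above were not compared with genes of like span. Cntnap5a itself ranked sixth by span among the analysed genes. Of the 10 genes with the highest mean ratios 8 spanned over 100 kb, with a median span of 195 kb, against 1 of the 10 with the lowest, with a median of 12.6 kb. The median of the 333 genes was 32.7 kb. Among all 49 tested genes over 100 kb the median log2 ratio was 0.35 in the vehicle library (interquartile range 0.14 to 0.54) and 0.26 in the GnRH library (0.09 to 0.49), with 42 and 40 above 0. Among the 124 genes of 30 to 100 kb it was 0.15 and 0.05, among the 96 of 10 to 30 kb 0.00 and -0.10, and among the 64 under 10 kb -0.02 and -0.01. In the vehicle library 11 of the 49 long genes were at least 1.5-fold higher, and in the GnRH library 8, beside 7.27% and 3.87% of all genes. Npas2, a circadian transcription factor of 170 kb, was an exception with -0.75 and -0.32.

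Across the 333 genes the log2 ratio had a Pearson correlation of 0.35 with log10 span among vehicle and 0.34 among GnRH cells. With the summed exon length it was 0.35 in each, so span and exon length were not separated. The correlation with span was 0.38 and 0.35 in the more abundant 167 genes, and 0.32 and 0.32 in the other 166. Inside bins of like UMI total it was 0.35 and 0.36, and with classes and levels from separate sets of UMIs 0.27 and 0.33. After thinning to 300 UMIs it was lowest, at 0.26 and 0.28. These values are across genes of the same cells and carry no p. The table does not separate reads of introns from those of exons. UMI totals also differed between the classes, and the values inside bins of like total are those given above.

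**Figure D4:**
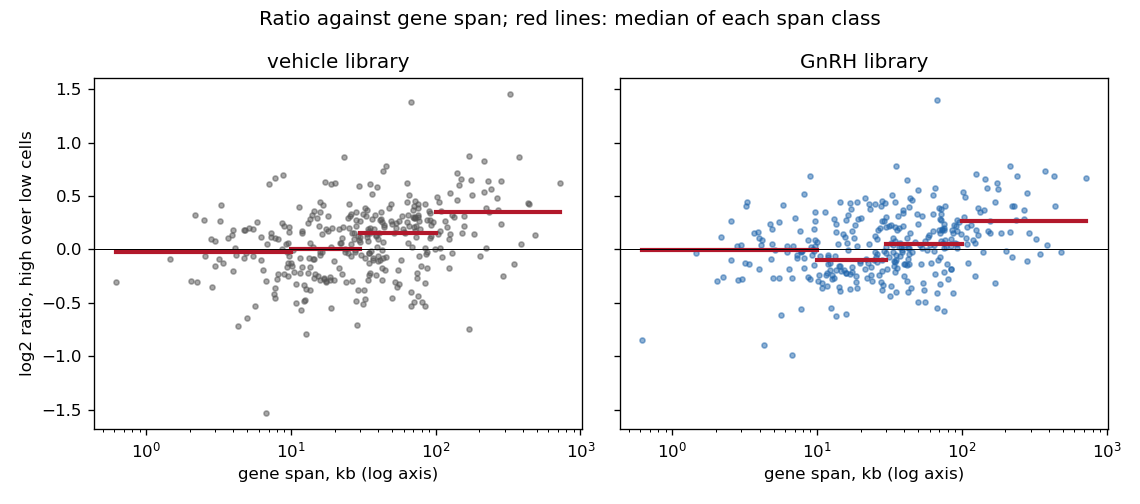
Log2 ratio of high over low cells (y axis) against gene span in kb (x axis, log scale) for 333 genes in each library, with red lines at the median of the genes under 10, 10 to 30, 30 to 100 and over 100 kb. The last line lies above the others in both libraries, at 0.35 and 0.26.

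The genes nearest to Cntnap5a on the chromosome differed in direction. Of the annotated genes analysed, the nearest ones on either side, 9330185C12Rik and Gm19965, had at most 8 UMIs in any class. The nearest with at least 100 UMIs were Tsn, a nucleic acid binding protein, at 1.71 Mb (log2 ratios -0.27 and -0.23), Nifk, a nucleolar protein, at 1.73 Mb (0.17 and -0.14) and Clasp1, a microtubule plus-end protein, at 1.80 Mb (0.39 and 0.41) on one side, and Vps4b at 8.89 Mb (0.39 and 0.23), Kdsr at 8.93 Mb (0.59 and 0.37) and Bcl2 at 8.97 Mb on the other. The 15 genes within 5 Mb had a median log2 ratio of -0.03 among vehicle and -0.15 among GnRH cells, against 0.11 and 0.02 for the 147 genes more than 50 Mb away. Tmem37 is among the 15, of which 7 and 5 were above 0. The 9 genes at 5 to 10 Mb, Vps4b, Kdsr and Bcl2 among them, had medians of 0.27 and 0.22, with 8 and 6 above 0.

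The last question was whether the response to GnRH differed between the classes. In each class 4 genes rose at least 2-fold with GnRH and 0 fell that far, out of 347 genes tested in high cells (1.15%) and 332 in low cells (1.2%). They were Btg2, Coq10b, Fhl2 and Ptprn in both. Btg2, an early response gene that restrains cell division, had 298 vehicle and 8441 GnRH UMIs in high cells (1050 and 28996 CPM), a 27.6-fold difference (log2 ratio 4.79, 4.62 to 4.96). In low cells it had 233 and 6535 UMIs (928 and 26947 CPM), a 29.03-fold difference (4.86, 4.67 to 5.05). The high minus low difference of the log2 ratios was -0.07, with a counting interval of -0.32 to 0.18. Its sign depended on the setting. The log2 ratios were 5.08 in high and 4.82 in low cells after thinning, but 4.66 and 5.03 in cells with at least 500 UMIs. With GnRH the median cell held 16 Btg2 UMIs in the high and 11 in the low class, and 4 of 448 high and 17 of 446 low cells held none. After thinning, 97.3% of high (95.5 to 98.5%) and 92.4% of low cells (89.7 to 94.6%) had a Btg2 UMI.

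Coq10b, which encodes a coenzyme Q-binding protein of mitochondria, had log2 ratios of GnRH over vehicle of 2.28 in high (2.04 to 2.53) and 2.12 in low cells (1.89 to 2.36), a difference of 0.16 (-0.17 to 0.49). Ptprn, a dense-core granule membrane protein, had 1.19 (0.96 to 1.42) and 1.05 (0.83 to 1.28), a difference of 0.14 (-0.18 to 0.45). Neurl3, a ubiquitin ligase gene, had 3 vehicle and 26 GnRH UMIs in high cells (log2 ratio 3.08, 1.37 to 5.45). In low cells it had 0 and 24 UMIs. With the 0 set to a floor of 3 counts over the class, the log2 ratio there was 3.05, or 8.28-fold. Its lower counting limit was 2.64, and it had no finite upper limit. The 8.28-fold value thus depends on the floor, and the alternatives gave values on both sides of it.

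Fhl2, a LIM domain cofactor of transcription, also differed in level between the classes. It had 71 UMIs in high and 25 in low cells of the vehicle library (250 and 99.6 CPM) and 251 and 102 in the GnRH library (862 and 421 CPM). High cells were above low cells by a log2 ratio of 1.33 (0.65 to 2.05) and 1.04 (0.70 to 1.38). Its sum of 96 vehicle UMIs kept it out of the 333 genes above, and after thinning 4.73% of high (3.06 to 6.96%) and 3.81% of low vehicle cells (2.40 to 5.72%) held a Fhl2 UMI, against 23.3% (19.8 to 27.03%) and 12.9% (10.04 to 16.2%) with GnRH. The GnRH over vehicle log2 ratio was 1.78 in high (1.40 to 2.19) and 2.08 in low cells (1.44 to 2.77), a difference of -0.29 (-1.03 to 0.44). Over the 330 genes with enough UMIs in each class the high minus low difference had a median of -0.03 (interquartile range -0.16 to 0.08). For 2 genes it was 1.5-fold or more, named here after their values were seen. Plekha6, a pleckstrin homology domain protein, was at -0.74 (-1.33 to -0.15) and Rnf25, a ubiquitin ligase, at 0.59 (0.08 to 1.10). Col19a1, with too few UMIs in low cells to be among the 330, was at -1.35 (-2.10 to -0.60), from 102 vehicle and 76 GnRH UMIs in high and 33 and 59 in low cells. With 1 library per treatment the difference in response cannot be tested, and these intervals do not show that the classes respond alike.

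**Figure D5:**
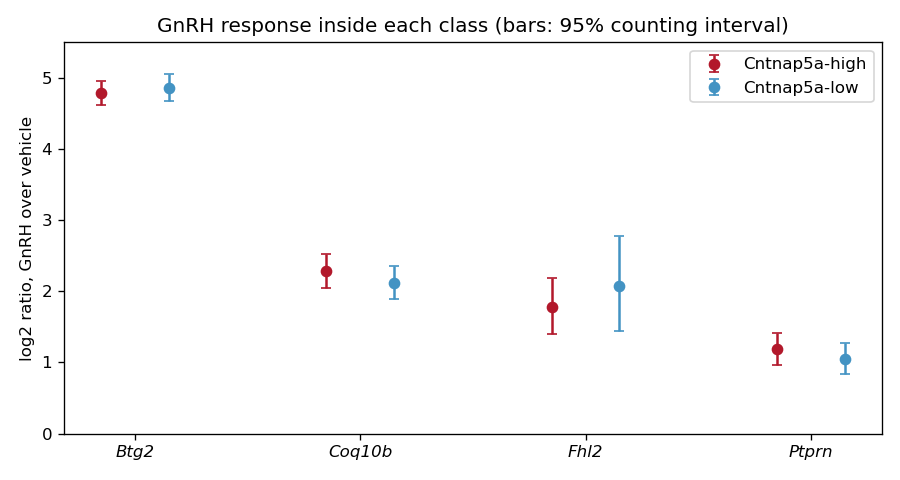
Log2 ratio of GnRH over vehicle (y axis) for Btg2, Coq10b, Fhl2 and Ptprn in Cntnap5a-high (red) and Cntnap5a-low (blue) cells, with bars for the 95% counting interval. The intervals of the classes overlap for each of the 4 genes.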

How the data were processed

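The counts were deposited as unnormalised UMI counts for the authors' called cells; the submitters' processing notes name Cell Ranger 1.3 and mm10. Of 27998 genes listed, 1068 (3.81%) were analysed, so totals are not whole-library depths. The annotation and the use of strand in counting are not given in the sources used here. An incomplete last row (1) was left out, and 0 per-sample columns were unused. Cells are numbered without barcodes, so shared barcodes could not be counted. Gene positions and overlaps are from GENCODE M21 (GRCm38).

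UMIs were summed per class and divided by the sum of genes other than Cntnap5a. Ties at a quartile limit were included. Intervals were exact Poisson for sums, Clopper-Pearson for shares and conditional binomial for ratios; those for differences of log2 ratios were normal approximations on counts. Genes needed 100 UMIs over the classes compared and were called by size alone (1.5-fold, or 2-fold for GnRH). Thinning left out a further 4 vehicle and 6 GnRH cells. Doublets were not called; an alternative dropped the 5% of cells with most UMIs. Functions were tested on simulated data. Python 3.11.15, NumPy 2.4.6 and SciPy 1.17.1 were used.

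The cells and gene lists were chosen with earlier results of these data known. Named genes were Cntnap5a and Cntnap5b, 5 early GnRH genes, the 10 highest and 10 lowest mean log2 ratios, the chromosomal neighbours and 7 gene lists.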

Additional observations from a re-analysis of the deposited data

How the results depend on the processing

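No paired analysis was possible because the labels give 1 library for GnRH and 1 for vehicle. No called value of a named gene changed sign under an alternative. Of 333 genes, Fn1 and Tmem37 were past 1.5-fold in both libraries under each alternative that re-formed or rescaled the classes. Btg2 left out of the totals was chosen after seeing the data. Values below are given for the vehicle and then the GnRH library; why they moved was not tested except where fewer cells, a wider or narrower choice of cells, or another threshold is the alternative itself.

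The log2 ratio of Cntnap5a was 2.66 and 3.00 after thinning to 300 UMIs, 1.80 and 1.88 with separate sets of UMIs, 2.63 and 2.53 within bins of UMI total, 2.58 and 2.53 in cells with at least 500 UMIs, 4.43 and 4.66 for the top and bottom 10% of cells, and 1.58 and 1.60 for cells above against at or below the median. The ratio of mean UMIs was 1.12 with separate sets (vehicle), 0.982 and 0.993 within bins, 1.04 and 1.13 with at least 500 UMIs, 1.17 for the 10% ends (vehicle), 1.07 and 1.14 about the median, and 1.10 and 1.12 without the 5% of cells with most UMIs. Thinning gives no such ratio.

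Genes at least 1.5-fold higher numbered 7 and 6 after thinning, 16 with separate sets (vehicle), 22 for the 10% ends (GnRH), 14 and 4 about the median, and 12 under TMM and 10 under median-of-ratios (vehicle). They numbered 39 and 28 with at least 20 UMIs, 54 and 46 with no minimum, 7 and 5 with at least 500 UMIs, 68 and 59 at a fold threshold set below 1.5, and 2 and 2 at 2-fold. Genes lower numbered 3 after thinning (vehicle), 12 and 12 for the 10% ends, 1 and 3 about the median, 12 under TMM and 15 under median-of-ratios (vehicle), 14 and 21 with at least 20 UMIs, 36 and 46 with no minimum, 2 and 3 with at least 500 UMIs, 33 and 29 at a fold threshold set below 1.5, and 1 and 0 at 2-fold. In both libraries at once, the higher and lower genes numbered 3 and 1 after thinning, 15 and 6 for the 10% ends, 1 and 1 about the median, 4 higher under TMM and 4 under median-of-ratios, 13 and 6 with at least 20 UMIs, 19 and 18 with no minimum, 4 and 1 with at least 500 UMIs, 38 and 17 at a fold threshold set below 1.5, and 1 and 0 at 2-fold.

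The GnRH ratio of Btg2 (log2) was 5.08 after thinning and 4.98 with separate sets in high cells, and 4.39 for the 10% ends and 5.10 about the median in low cells. The median of mitochondrial genes was -0.28 for the 10% ends, -0.29 under TMM and -0.31 under median-of-ratios (vehicle), and -0.057 after thinning (GnRH). That of chaperone and stress genes was -0.045 after thinning (GnRH). Genes with few UMIs and thinned cells, which hold few Cntnap5a UMIs each, limit the precision.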
